A study of Homo sapiens with 4 samples.

Results

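Respiratory complex I is built from subunits encoded in the nucleus and from subunits encoded in mitochondrial DNA, and the 36 nuclear genes examined here were the named NDUF subunit genes whose Ensembl identifiers carry those symbols in GENCODE release 44. They are 36 of the 58735 genes in the deposited table of FPKM values, a unit in which fragments are divided by the length of the gene and by a total for the library. RNA-seq had been done on 4 libraries labelled NB4, the name of a human line derived from an acute promyelocytic leukemia. Per the labels, control cells received no treatment (2 libraries). The treated cells received GNE-987 at 25 nM for 24 h (2 libraries), a compound that binds BET bromodomain proteins and recruits a ubiquitin ligase to them. All libraries came from 1 cell line, and the labels do not say whether replicates were separate cultures, so the P values measure the spread between these libraries, which may be technical.

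Complex I oxidizes NADH at the tip of an arm that projects into the mitochondrial matrix, passes the electrons along a chain of iron-sulfur clusters to ubiquinone, and couples this to proton pumping through an arm in the inner membrane. The core subunits of the matrix arm hold the flavin and the iron-sulfur clusters, while the core subunits of the membrane arm are all made from mitochondrial DNA (the MT-ND genes). The remaining nuclear genes encode accessory subunits, which surround the core and are needed for its assembly and stability. The members were ordered here into a matrix arm (15 genes), a proximal membrane arm (9 genes) and a distal membrane arm (11 genes, NDUFB1 to NDUFB11), with NDUFAB1, the mitochondrial acyl carrier protein, found in both arms.

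Promoter windows from RefSeq (GRCh38.p14, 250 bases before to 50 bases after the annotated start) were matched for 32 of the 36 members, and the windows of NDUFB5, NDUFB9, NDUFC2 and NDUFS5 were not matched. The windows were searched on both strands for 4 motifs, and none of the motifs contains another. The NRF1 core GCATGCGC was found in 5 member windows (15.6%) and in 3.27% of the 27305 windows of all genes. AAGATGGC, a YY1 motif, was found in 6 member windows (18.8%) and in 3.03% of all windows. CCGGAAGT, an ETS family motif, was in 2 member windows (6.25%, against 4.44%), and the E-box CACGTG was in 3 (9.38%, against 7.43%). In 5 of the 6 windows with the YY1 motif it lay between 15 and 26 bases after the start, and in NDUFA9 it lay 11 bases after it. A match describes letters in the window and not a bound site. The 5 windows below begin with that of the member with the largest increase (NDUFA2, chr5:140647581-140647880, minus strand). Next come a member with 3 of the motifs (NDUFS7, chr19:1383657-1383956, plus strand) and a member with the YY1 motif just after its start (NDUFA3, chr19:54102605-54102904, plus strand). In the window of NDUFA8 (chr9:122159730-122160029, minus strand), overlapping NRF1 matches begin 4 and 2 bases before its start and run across it. The last window is that of the member that decreased most (NDUFS1, chr2:206159395-206159694, minus strand). Capitals mark the motifs, and each sequence is written 5′ to 3′ on the strand of the gene.
NDUFA2: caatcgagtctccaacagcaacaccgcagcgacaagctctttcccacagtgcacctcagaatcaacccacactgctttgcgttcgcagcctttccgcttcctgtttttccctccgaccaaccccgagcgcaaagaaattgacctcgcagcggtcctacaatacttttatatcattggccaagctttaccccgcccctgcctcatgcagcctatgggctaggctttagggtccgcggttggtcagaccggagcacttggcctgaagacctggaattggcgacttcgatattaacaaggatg
NDUFS7: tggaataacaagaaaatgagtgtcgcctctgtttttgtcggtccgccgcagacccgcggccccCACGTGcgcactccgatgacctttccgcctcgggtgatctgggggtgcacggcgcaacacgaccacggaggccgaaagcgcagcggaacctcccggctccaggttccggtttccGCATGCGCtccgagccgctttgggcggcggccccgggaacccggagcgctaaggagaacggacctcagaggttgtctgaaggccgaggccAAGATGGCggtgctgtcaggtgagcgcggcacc
NDUFA3: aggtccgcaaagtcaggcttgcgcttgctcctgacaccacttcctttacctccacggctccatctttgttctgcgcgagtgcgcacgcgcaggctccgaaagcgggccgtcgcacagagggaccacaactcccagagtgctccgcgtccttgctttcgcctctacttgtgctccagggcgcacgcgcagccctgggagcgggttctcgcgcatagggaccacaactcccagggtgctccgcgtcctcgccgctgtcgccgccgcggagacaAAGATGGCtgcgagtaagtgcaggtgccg
NDUFA8: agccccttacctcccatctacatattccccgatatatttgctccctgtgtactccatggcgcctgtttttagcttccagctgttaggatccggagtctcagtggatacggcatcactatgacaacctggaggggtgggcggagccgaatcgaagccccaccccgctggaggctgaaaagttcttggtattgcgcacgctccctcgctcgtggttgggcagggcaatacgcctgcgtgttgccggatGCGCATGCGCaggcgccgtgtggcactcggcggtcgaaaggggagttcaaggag
NDUFS1: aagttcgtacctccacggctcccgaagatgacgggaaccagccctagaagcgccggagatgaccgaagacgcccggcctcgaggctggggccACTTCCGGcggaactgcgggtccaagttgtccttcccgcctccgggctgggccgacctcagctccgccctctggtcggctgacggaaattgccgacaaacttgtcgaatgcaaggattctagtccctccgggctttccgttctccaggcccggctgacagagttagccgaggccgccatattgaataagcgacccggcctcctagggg
Members with a motif and members without one were found both among those below control and among those that rose. Among the matched windows with a motif, that of NDUFA3 had the largest log2 fold change (1.26). The matched windows of members above NDUFA3 held none of the 4 motifs. The NDUFA2 window held none of the 4 motifs, and neither did those of NDUFA1 and NDUFB11, the next 2 members by size of increase. NDUFA8, with its NRF1 matches, lay below control after treatment, whereas NDUFS6, with an NRF1 match 46 bases before its start, rose.

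Properties of the libraries bear on every value that follows. Of 9 granulocyte precursor genes, markers of the labelled cell type, only 2 reached 1 FPKM in the controls. They were SPI1 (7.52 and 5.68 FPKM) and AZU1 (2.07 and 2.10 FPKM), and CD33 was at 0.836 and 0.915 FPKM. CTSG and ELANE were at 0 in both controls, and MPO was at 0.0246 and 0 FPKM. By contrast, 10 of 11 erythroid genes reached 1 FPKM. The summed erythroid markers moved from 464 and 430 FPKM to 857 and 741 FPKM after treatment and the summed granulocyte markers from 11.0 and 9.56 FPKM to 32.5 and 29.7 FPKM. The 5 megakaryocyte genes summed to 1.39 and 1.41 FPKM in the controls and 6.33 and 7.76 FPKM after treatment, and the 4 lymphoid genes to 0.936 and 0.950 FPKM and to 23.7 and 22.0 FPKM. The part of these markers in the results on complex I was not tested. In bulk RNA, a change in the share of cells of a type and a change in RNA per cell cannot be told apart. The reads on genes, which could be recovered because FPKM values rise in whole-read steps, were 19243268 and 19041565 in the controls and 12335288 and 12837941 in those with GNE-987. The deposited values had, however, been scaled to totals that were 1.20 and 1.16 times these reads in the controls and 0.678 and 0.687 times in the GNE-987 libraries, so the scaling raises GNE-987 values relative to a scaling by reads on genes. Directions are therefore given at the deposited scaling, with the values at other scalings beside them, and relative to the median log2 fold change of all 16668 tested genes, which was 0.17.

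At the deposited scaling, more complex I subunit genes were called higher than lower with GNE-987. This order of the calls turned around under scaling to reads or to GAPDH, although under scaling to total reads 19 of the 36 members still lay above 0. All 36 members passed the filter on low values (a mean of at least 0.5 FPKM). By the study's thresholds (unadjusted P under 0.05 and over 2-fold), 15 members rose, 1 fell and 20 did neither, where 33.6% of all tested genes were called higher and 24.9% lower. Among tested protein-coding genes, 24% were called higher and 31.7% lower. The members' share called higher, 41.7%, was thus not far from that of all tested genes, and their share called lower, 2.78%, was the one that stood further from the background. With a Benjamini-Hochberg adjusted P under 0.05 (limma) and no limit on fold, 26 members were higher and 5 lower, against 41.5% and 36.1% of all tested genes. Both GNE-987 libraries lay above both controls for 26 members and below both for 6, and the groups overlapped for 4 (NDUFA7, NDUFA9, NDUFA11 and NDUFS4), where 89.1% of all tested genes had groups that did not overlap. The median log2 fold change of the members was 0.87, on the log2(FPKM + 0.1) scale, against 0.17 for all tested genes and -0.29 for protein-coding genes. The members spanned 2.98 on the log2 scale, from NDUFS1 to NDUFA2, and 25 of them lay above the median of all tested genes.

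**Figure D1:**
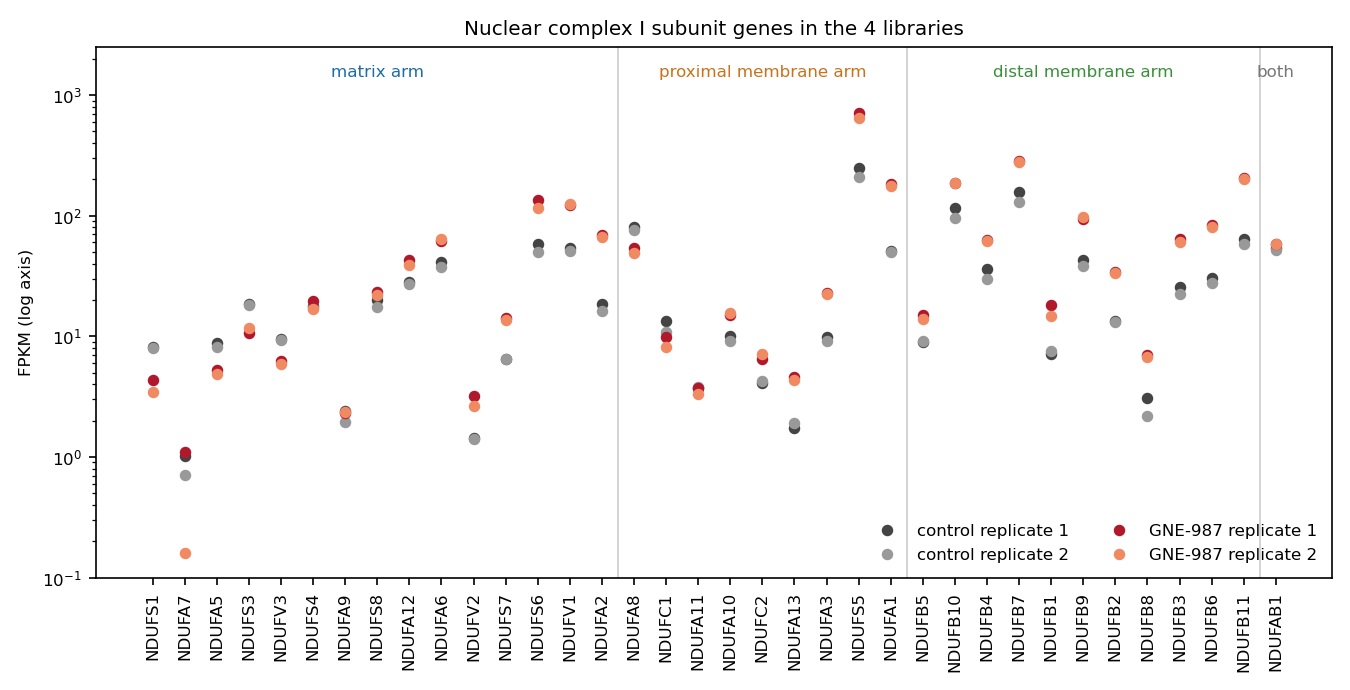
FPKM (log axis) of each of the 36 nuclear complex I subunit genes in the 2 control and 2 GNE-987 libraries, 1 point per library, ordered within each arm by log2 fold change. At the deposited scaling the GNE-987 points lie above the control points for 26 genes and below them for 6, and NDUFA7 spreads most between replicates.

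The choice of scaling set how many members were called. Scaled to the total of reads on genes, 2 members were called higher (NDUFA1 and NDUFA2) and 6 lower (NDUFA5, NDUFA8, NDUFC1, NDUFS1, NDUFS3 and NDUFV3), beside 25% and 40% of all tested genes. Scaled to GAPDH, a glycolytic enzyme often used as a reference, 0 members were called higher and 18 lower, beside 18.2% and 58.4% of all tested genes. GAPDH itself was at 398 and 432 FPKM in the controls and at 1501 and 1499 FPKM after treatment at the deposited scaling. The median of all tested genes fell by 0.75 under scaling to reads and by 1.77 under scaling to GAPDH. The members' median was 0.086 and -0.98 under these scalings, which was 0.66 and 0.62 above the median of all tested genes. At each of the 6 scalings tried, 25 members lay above the all-gene median. Except for quantile normalization, however, each scaling applies 1 factor per library. Such a factor shifts all genes alike apart from the pseudocount, so this count was nearly fixed in advance.

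**Figure D2:**
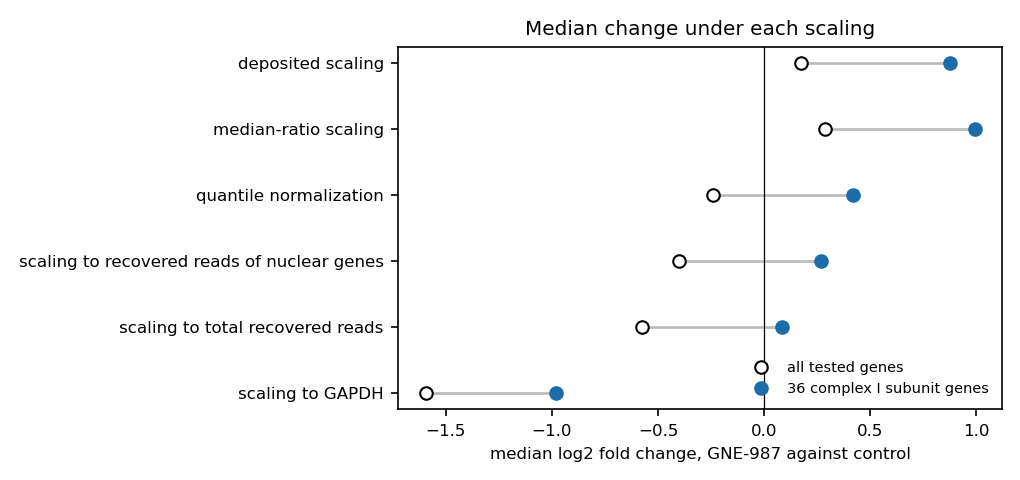
Median log2 fold change of the 36 nuclear complex I subunit genes (filled) and of all tested genes (open) under 6 scalings of the same libraries. The members' median changes sign under scaling to GAPDH (-0.98), and it lies to the right of the all-gene median under each scaling, by 0.62 to 0.70. Except for quantile normalization, each scaling applies 1 factor per library, which leaves this gap nearly fixed in advance.

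The members' share of reads shows their summed reads under scaling to the reads of nuclear genes or to all reads on genes. Reads on the 36 members made up 0.400% and 0.359% of the reads on nuclear genes in the controls and 0.489% and 0.485% in the GNE-987 libraries. As a share of all reads on genes, mitochondrial genes included, they made up 0.385% and 0.342% in the controls and 0.412% and 0.411% with GNE-987. Both GNE-987 libraries lay above both controls on either measure, and reads from long transcripts weigh more in it than reads from short ones. The sum leans on NDUFB9, which held 16124 and 13816 of the 74113 and 65169 member reads in the controls. With GNE-987 it held 12860 and 14140 of 50847 and 52755. NDUFB9 shares 13.2% of its exon bases with MTSS1 and TATDN1. The order of the libraries was not tested without it.

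The core subunits of the matrix arm did not move together. NDUFV1, which binds NADH and flavin, was at 53.5 and 50.6 FPKM in the controls and at 123 and 125 FPKM after treatment. It rose by 1.25 on the log2 scale (SE 0.047, adjusted P = 0.000223). NDUFV2, its iron-sulfur partner at the NADH end, was at 1.44 and 1.42 FPKM in the controls and at 3.18 and 2.63 FPKM after treatment. The groups did not overlap, and its log2 fold change of 0.97 (SE 0.14, adjusted P = 0.00510) stayed under the 2-fold limit on the log2(FPKM + 0.1) scale, although the mean FPKM was 2.03-fold higher. With a pseudocount of 0.01 FPKM it passed. NDUFS7, which carries the last iron-sulfur cluster before ubiquinone, was at 6.47 and 6.52 FPKM in the controls and at 14.2 and 13.6 FPKM after treatment. It rose by 1.09 (SE 0.058, adjusted P = 0.000413), but 51.4% of its exon bases are shared with genes on the opposite strand.

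NDUFS1 (ENSG00000023228, GRCh38 chr2:206114817-206159509), the largest core subunit and a carrier of several iron-sulfur clusters, was the single member that fell by the study's thresholds. It was at 8.09 and 8.01 FPKM in the controls and at 4.36 and 3.45 FPKM after treatment. Both GNE-987 libraries lay under both controls, and its level fell by 1.03 on the log2 scale (SE 0.14, 95% CI -1.42 to -0.65, adjusted P = 0.00369). This call was lost without GNE-987 replicate 2, with a pseudocount of 1 FPKM and under median-ratio scaling, with 0 members then called lower, and held at scaling to reads and to GAPDH. NDUFS3, another core subunit of the arm, was at 18.5 and 18.3 FPKM in the controls and at 10.7 and 11.6 FPKM after treatment, with no overlap. Its log2 fold change was -0.72 (SE 0.065, adjusted P = 0.00134), and 18.1% of its exon bases are shared with PTPMT1 and CELF1. NDUFS8, which carries iron-sulfur clusters beside NDUFS7, was at 19.9 and 17.7 FPKM in the controls and at 23.4 and 21.9 FPKM after treatment. Its log2 fold change of 0.27 (SE 0.084, adjusted P = 0.0434) was close to the median of all tested genes. Of the 6 core subunit genes, 2 rose and 1 fell, and of the 30 accessory subunit genes, 13 rose and 0 fell. Scaled to reads, 0 core genes were higher and 2 lower, and 2 accessory genes were higher and 4 lower. Scaled to GAPDH, 0 core and 0 accessory genes were higher, and 3 and 15 were lower.

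Accessory subunits of the matrix arm held the largest increase of all members beside several genes that lay below control. NDUFA2 (ENSG00000131495, GRCh38 chr5:140638740-140647771), a small subunit at the NADH end of the arm, was at 18.7 and 16.2 FPKM in the controls and at 68.7 and 66.1 FPKM after treatment. That was a 3.87-fold higher mean, with a log2 fold change of 1.95 (SE 0.087, adjusted P = 0.000291), and it stayed called at the scaling to reads (1.16). NDUFS6, a zinc-binding subunit, rose by 1.21 (adjusted P = 0.00156). NDUFA6, which binds the acyl carrier protein, had a log2 fold change of 0.67 and NDUFA12 one of 0.56, both with an adjusted P under 0.05 and neither 2-fold.

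NDUFA5, NDUFV3 and NDUFA7 lay at the other end of the matrix arm. NDUFA5 was at 8.74 and 8.11 FPKM in the controls and at 5.23 and 4.85 FPKM after treatment, a log2 fold change of -0.73 (SE 0.083, adjusted P = 0.00243). NDUFV3, at the NADH end, was at 9.45 and 9.33 FPKM in the controls and at 6.30 and 5.91 FPKM after treatment, a log2 fold change of -0.61 (SE 0.067, adjusted P = 0.00224). Neither passed the 2-fold limit, and in both genes the groups did not overlap. NDUFA7 was at 1.01 and 0.704 FPKM in the controls and at 1.10 and 0.160 FPKM after treatment, values that rest on 33, 22, 13 and 2 reads. The groups overlapped, and its log2 fold change of -0.76 (SE 0.84, adjusted P = 0.450) turned positive without GNE-987 replicate 2 (0.34). For NDUFA7 a change was not detectable at this depth.

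Another 2 subunits of the matrix arm showed no difference beyond the replicate spread. NDUFS4, an accessory subunit at the NADH end whose loss is a known cause of Leigh syndrome, was at 17.9 and 17.1 FPKM in the controls and at 19.6 and 17.0 FPKM after treatment. Its log2 fold change was 0.061 (95% CI -0.20 to 0.32, adjusted P = 0.572). NDUFA9, near the ubiquinone site, was at 2.39 and 1.95 FPKM in the controls and at 2.30 and 2.36 FPKM after treatment, a log2 fold change of 0.11 (95% CI -0.30 to 0.51, adjusted P = 0.534). Over the 15 genes of the matrix arm, 4 rose, 1 fell and the median was 0.27 at the deposited scaling. It was -0.51 at the scaling to reads and -1.57 at the scaling to GAPDH.

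The proximal membrane arm was split as well. NDUFA1 (ENSG00000125356, GRCh38 chrX:119871832-119876662), a single-pass membrane subunit, was at 50.7 and 49.6 FPKM in the controls and at 181 and 176 FPKM after treatment. It rose by 1.83 on the log2 scale (SE 0.041, adjusted P = 0.000128). NDUFS5, a subunit on the side of the intermembrane space, had the highest level of all members, 250 and 210 FPKM in the controls and 703 and 640 FPKM after treatment. It rose by 1.55 (SE 0.11, adjusted P = 0.000745), and quantile normalization turned its sign (-0.32). NDUFA3 (1.26) and NDUFA13, also known as GRIM-19 (1.24), rose too, while NDUFA10 (0.67) and NDUFC2 (0.68) stayed within 2-fold.

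NDUFA8, NDUFC1 and NDUFA11 were the members of the proximal arm that did not lie above control. NDUFA8, a cysteine-rich subunit facing the intermembrane space, was at 80.6 and 76.5 FPKM in the controls and at 53.9 and 49.1 FPKM after treatment, without overlap (log2 fold change -0.61, adjusted P = 0.00214). NDUFC1, a small membrane subunit, had a log2 fold change of -0.42 (95% CI -0.85 to 0.0047, adjusted P = 0.0647), and 31.5% of its exon bases are shared with NAA15 and MGARP. NDUFA11, a membrane subunit, was at 3.71 and 3.82 FPKM in the controls and at 3.73 and 3.32 FPKM after treatment (log2 fold change -0.093, 95% CI -0.38 to 0.19, adjusted P = 0.439). The groups of NDUFA11 overlapped. Over the 9 genes, 4 rose, 0 fell and the median was 0.68, which became -0.098 at the scaling to reads.

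The distal membrane arm was the most uniform group of members. All 11 genes had an adjusted P under 0.05 and a positive log2 fold change at the deposited scaling, between 0.67 (NDUFB5) and 1.73 (NDUFB11), and 7 of them rose over 2-fold. NDUFB11 (ENSG00000147123, GRCh38 chrX:47142071-47145466) was at 64.5 and 58.7 FPKM in the controls and at 206 and 203 FPKM after treatment, a log2 fold change of 1.73 (SE 0.060, adjusted P = 0.000202). NDUFB6 was at 30.4 and 27.9 FPKM in the controls and at 84.4 and 79.8 FPKM after treatment, a log2 fold change of 1.49 (SE 0.066, adjusted P = 0.000289). In both genes every GNE-987 value was more than 2 times every control value. NDUFB3 (1.38), NDUFB8 (1.37), NDUFB2 (1.35), NDUFB9 (1.25) and NDUFB1 (1.15) made up the remaining increases. Of the 7 genes that rose over 2-fold, only NDUFB1 shares no exon bases with another gene above 0. The shared part was largest in NDUFB2 (35.9%, with BRAF, NDUFB2-AS1 and ADCK2). NDUFB7 (0.97), NDUFB4 (0.93), NDUFB10 (0.81) and NDUFB5 (0.67) stayed within 2-fold. The median of the arm was 1.25, the SD over its genes was 0.32, and the SD over the genes of the matrix arm was 0.91. Scaled to reads, 10 of the 11 genes lay above 0, with 0 called higher and a median of 0.46, and scaled to GAPDH, 0 lay above 0. At both scalings all 11 lay above the median of all tested genes, a place that 1 factor per library leaves nearly unchanged. Under quantile normalization, 9 of the 11 did.

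**Figure D3:**
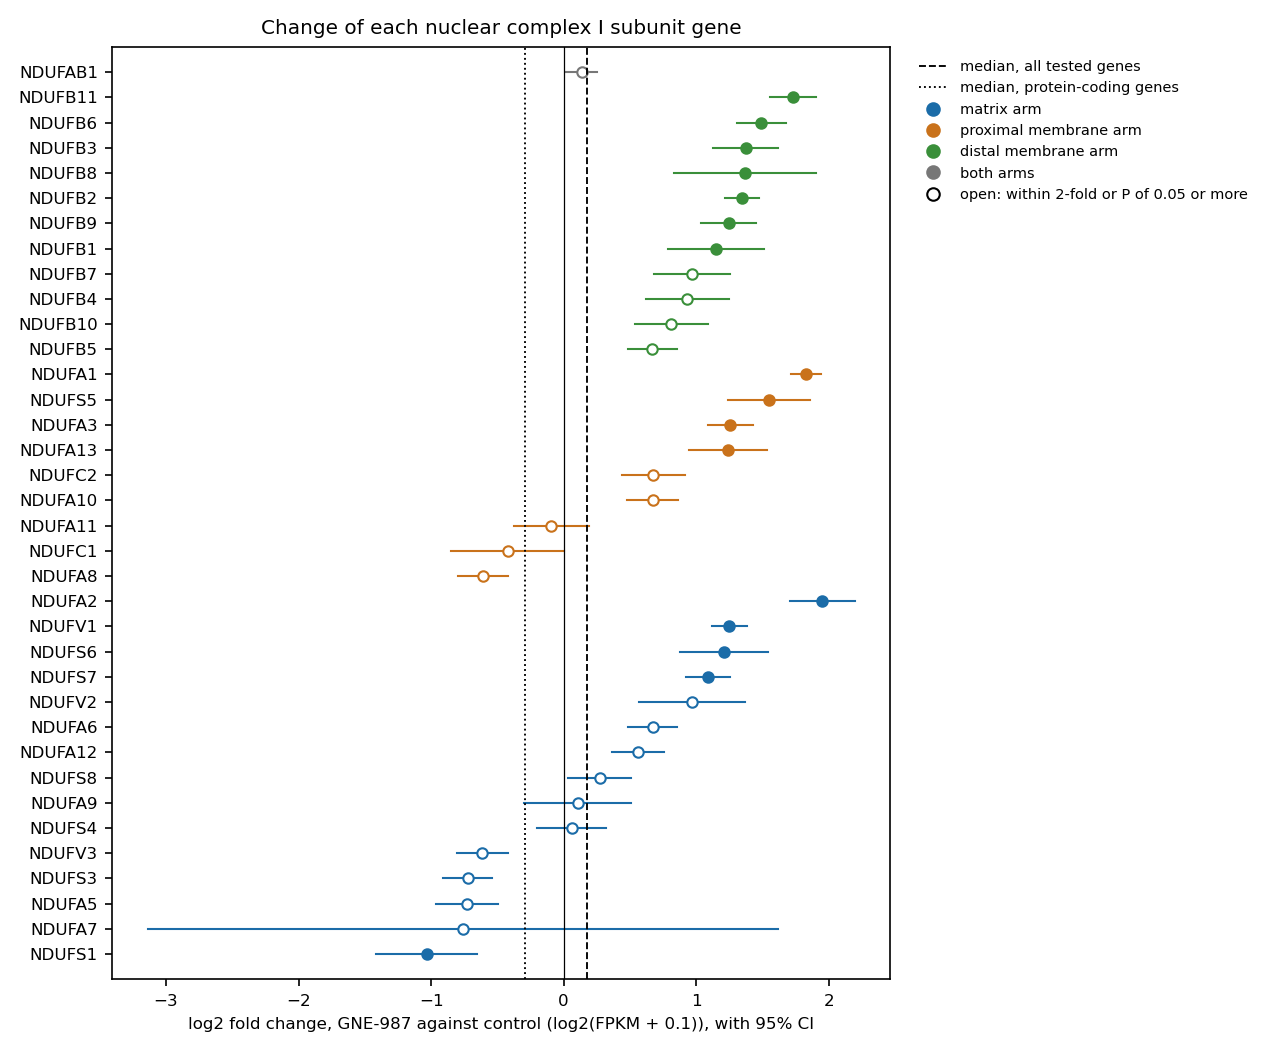
Log2 fold change of each member (GNE-987 against control, at the deposited scaling) with its 95% confidence interval from limma, coloured by arm, with filled points for genes past both thresholds. The 11 genes of the distal membrane arm lie between 0.67 and 1.73, the 15 of the matrix arm between -1.03 and 1.95, and both move to the left under scaling to reads or to GAPDH.

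A comparison of the arms inside each library leaves the scaling out, apart from the pseudocount. The mean log2 level of the distal arm exceeded that of the matrix arm by 1.18 and 1.13 in the controls and by 1.97 and 2.15 in the GNE-987 libraries. For the proximal arm the excess over the matrix arm was 0.385 and 0.438 in the controls and 0.724 and 0.884 with GNE-987. In both comparisons the GNE-987 libraries lay above the controls. NDUFA2 exceeded NDUFS1 by 1.19 and 1.00 in the controls and by 3.95 and 4.22 with GNE-987. These members were the extremes of the change, so this last difference is a description.

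The 7 subunits of complex I made from mitochondrial DNA had a higher median change than the nuclear ones at the deposited scaling and a lower one under quantile normalization (-0.12 against 0.42). All 7 rose at the deposited scaling, with a median log2 fold change of 2.64. MT-ND4 was at 2845 and 3660.5 FPKM in the controls and at 27144 and 25955 FPKM after treatment, the largest change (3.04). MT-ND5 had the smallest (1.73), from 1020.5 and 1109 FPKM to 3562 and 3478 FPKM. MT-ND2 (2.87), MT-ND4L (2.67), MT-ND3 (2.64), MT-ND1 (2.59) and MT-ND6 (1.83) lay between them. Within a library, the summed FPKM of the 7 genes was 9.84 and 12.7 times that of the 36 nuclear genes in the controls and 34.5 and 34.4 times with GNE-987. Scaled to reads 6 of the 7 were called higher, and under GAPDH scaling MT-ND5 and MT-ND6 turned to -0.13 and -0.023. Quantile normalization assigns the top ranks the same values in every library. Reads of mitochondrial DNA made up 3.79% and 4.59% of reads on genes in the controls and 15.7% and 15.3% with GNE-987.

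The assembly factors of complex I, which build the complex without being part of it, had a lower median than its subunits. Of 20 genes, 1 rose and 5 fell, a share of 25% called lower that was like the 24.9% of all tested genes and under the 31.7% of protein-coding genes. Their median was -0.49 at the deposited scaling and below 0 at all 6 scalings tried. NDUFAF4 was lowest (-1.70), from 19.1 and 17.2 FPKM to 5.65 and 5.35 FPKM, and NDUFAF3 was highest (1.11), although it lay at -0.74 under GAPDH scaling. NDUFAF5 (-1.67), TMEM70 (-1.36), TIMMDC1 (-1.22) and TMEM186 (-1.07) were the other genes that fell, named here after their values were seen.

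The groups that supply cofactors for electron transfer in complex I lay below the all-gene median. For reference, 33.6% of all tested genes were called higher and 24.9% lower, and the median of protein-coding genes was -0.29. Of 14 tested genes of iron-sulfur cluster assembly, 0 rose and 2 fell, with a median of -0.30, close to that of protein-coding genes. BOLA3 was highest (0.82), ISCA2 fell by 1.95 on the log2 scale and was named after its value was seen, and FDX2 was not tested. Of 11 genes of ubiquinone synthesis, 1 rose and 7 fell, with a median of -1.26. COQ9 was lowest (-2.37), from 10.7 and 10.9 FPKM to 2.02 and 2.02 FPKM, and COQ6 was highest (1.01, and -0.63 under GAPDH scaling). Both medians stayed below 0 at all 6 scalings.

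Regulators of mitochondrial gene expression were compared as well. Of 13 tested genes, 1 rose and 7 fell, with a median of -1.19, and PPARGC1A was not tested. PPRC1, a coactivator of the PGC-1 family, was lowest (-3.14), from 18.1 and 18.6 FPKM to 1.86 and 2.12 FPKM. NRF1, whose motif was searched above, was highest (1.36), from 5.30 and 5.46 FPKM to 14.8 and 13.2 FPKM, and lay at -0.47 under GAPDH scaling. MYC, a known BET-dependent gene, fell from 91.5 and 90.4 FPKM to 40.3 and 39.5 FPKM (-1.19).

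Nuclear subunits of the other respiratory complexes were compared at the same scaling. Of 41 genes of complexes II to V, 27 rose and 2 fell, with a median of 1.33, or 1.15 above the all-gene median, and under GAPDH scaling their median was -0.52. Complex IV, cytochrome c oxidase, was the most uniform, with all 11 genes called higher, none under 1.38, and a median of 1.60. Complex V, the ATP synthase, had 12 of 17 higher and 0 lower, complex III 4 of 9 higher and 1 lower, and complex II 0 of 4 higher and 1 lower. SDHD of complex II was lowest (-1.61), ATP5ME of complex V was highest (2.33), and UQCRFS1 of complex III was the other gene that fell (-1.11). The members of complex I, at 15 higher and 1 lower of 36, lay between complex II and complex IV, and no test was made of the difference between complexes.

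**Figure D4:**
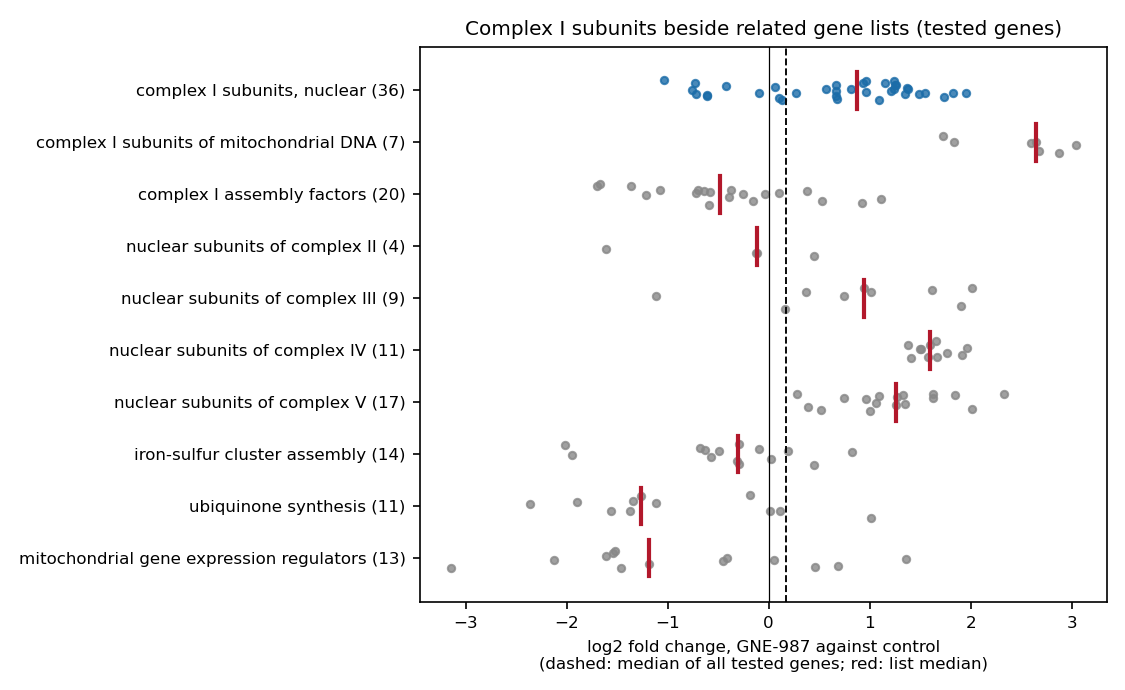
Log2 fold change of every tested gene in each list (GNE-987 against control, deposited scaling), with the list's median in red, the median of all tested genes dashed and the number of tested genes in parentheses. Medians run from 2.64 for the mitochondrial ND genes and 0.87 for the nuclear complex I subunits to -1.26 for ubiquinone synthesis, and those of nuclear complex I and of complexes III to V fall below 0 under GAPDH scaling, as do those of the ND genes and complex III under quantile normalization.

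The change of a member went with the length of its transcript, as it did over all protein-coding genes. The canonical transcripts of the members had a median of 684.5 bases, against 3136.5 bases for tested protein-coding genes. Of the 20 members with transcripts of up to 700 bases, 11 rose and the median was 1.18, whereas 68.9% of the 350 protein-coding genes of that length were called higher and their median was 1.74. The short members thus lay below the short genes as a class. Of the 6 members with transcripts over 4000 bases (NDUFA5, NDUFA9, NDUFA10, NDUFB5, NDUFS1 and NDUFV3), 0 rose, and their median was -0.25 against -0.60 for the class. Over the 36 members the correlation of log2 fold change with transcript length was -0.48 (Pearson) and -0.47 (Spearman), over genes of the same 4 libraries and so a description. Over the 10996 protein-coding genes it was -0.23 and -0.21. The part of length in the members' change was not tested.

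**Figure D5:**
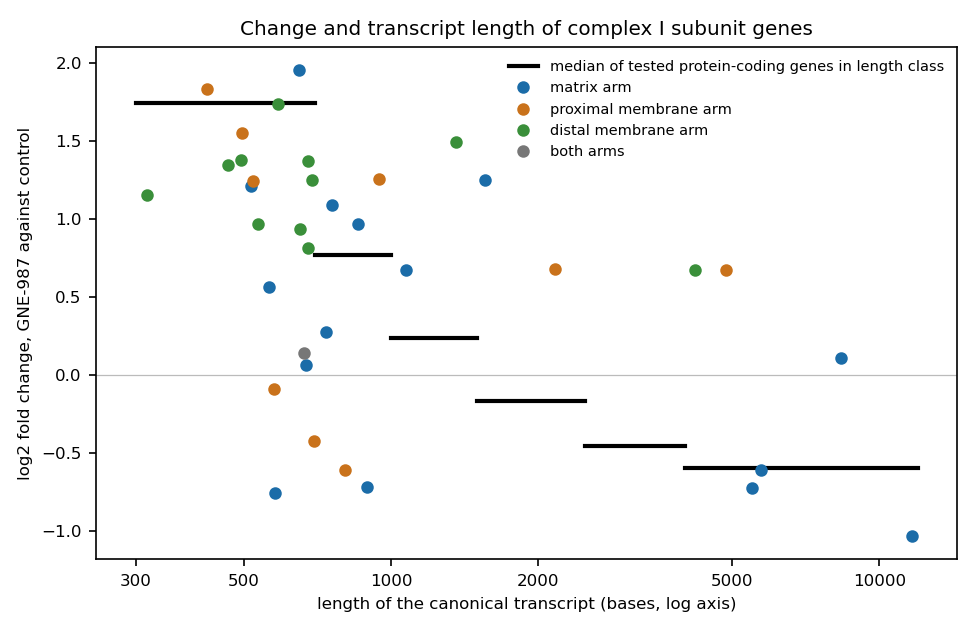
Log2 fold change of each member at the deposited scaling against the length of its canonical transcript (log axis), coloured by arm, with black bars for the median of all tested protein-coding genes in 6 length classes (the last is open-ended). The class medians run from 1.74 up to 700 bases to -0.60 over 4000 bases, and the members scatter around them from -1.03 to 1.95.

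The counting of overlapping genes limits some of these values. Exon bases of 17 members are shared with another gene above 0, and the strand setting of the counting is not given in the sources used here, so reads on the shared bases cannot be assigned to one gene. The shared part ran from 0.87% of the exon bases of NDUFB6 to 51.4% of those of NDUFS7. A processed pseudogene that passed the filter exists for 7 members, among them NDUFV2, NDUFB9 and NDUFB4. Among the 15 members with neither limit, 3 rose (NDUFA1, NDUFB1 and NDUFS5) and 1 fell (NDUFS1), with a median of 0.67, or 0.49 above the all-gene median. The share of these members called higher, 20%, lay below the 33.6% of all tested genes and the 24% of protein-coding genes. The recovered reads showed that 3 members (NDUFA7, NDUFB8 and NDUFV2) had under 100 reads in some library. The SE was largest for NDUFA7 (0.84) and NDUFB8 (0.19), while that of NDUFV2 (0.14) was below that of NDUFC1 (0.15).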

How the data were processed

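RNA-seq of 4 libraries (total RNA, TruSeq RNA kit) was analysed from values the authors had deposited. Per the labels, the authors' reads were mapped with HISAT2 2.0.5 to hg38, and the authors deposited FPKM per gene, of which the counting program, strand setting and annotation release are not given in the sources used here. The labels gave the groups, and a legend of the study gave dose and time. The members and lists were chosen with earlier results of these data known.

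The test used log2(FPKM + 0.1) of the 16668 genes whose mean reached 0.5 FPKM and was made with limma 3.58.1 under R 4.3.3 (two-sided, empirical Bayes with trend, no block). Genes were called at P under 0.05 and over 2-fold, and adjusted P values are Benjamini-Hochberg values over all tested genes. The log2(FPKM + 0.1) scale understates changes of low genes. Gene names and positions came from GENCODE release 44 on GRCh38, which holds 99.1% of the identifiers.

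Reads were recovered from the FPKM steps (tolerance 0.01 of a whole read). At annotated exon lengths 53.0% of the genes above 0 came out whole, and the others at another whole length, which is a weaker test. These reads, 12335288 to 19243268 per library, gave the depth, other scalings and a limma-voom alternative that called 16 members higher and 1 lower. The pseudocount, the filter, the scaling, the call rule, a replicate block and leaving out each library were varied, and the steps were tested on simulated data.

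Values in every library were given for the 6 core subunits, the 5 members with the largest and the 5 with the smallest log2 fold change and the 3 nearest 0. Of each other list, the genes with the largest and smallest change, the 7 MT-ND genes, MYC and GAPDH were named. Genes outside this rule were named after their values were seen, and 1 gene that the rule names is not reported here.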

Additional observations from a re-analysis of the deposited data

How the results depend on the processing

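The counts of 15 members higher and 1 lower and the median of 0.87 moved most with the scaling. The relative median of 0.70 moved less with the scaling (0.62 to 0.70) than with the filter, the subset of members or the library left out. It stayed above 0 under every alternative run. Scalings by 1 factor per library leave it nearly fixed in advance, and only quantile normalization (0.66) could have moved it much. Scaling to GAPDH gave 0 higher, 18 lower, a median of -0.98 and a relative median of 0.62. Scaling to total reads gave 2 higher, 6 lower and a median of 0.086, and scaling to reads of nuclear genes, which was added after the data were seen, gave 3, 6 and 0.27. Quantile normalization gave 7, 2 and 0.42, and median-ratio scaling gave 0 lower and a median of 0.99. A pseudocount of 1 FPKM gave 0 lower, a median of 0.74 and a relative median of 0.61. The relative median was 0.52 without a filter and 0.90 with a mean of at least 1 FPKM, where the median of all tested genes also moved. An adjusted P under 0.05 with no fold limit gave 26 higher and 5 lower, and the limma test against a 2-fold change gave 10 higher and 0 lower. The 15 members without shared exon bases or a tested pseudogene gave 3 higher, a median of 0.67 and a relative median of 0.49. Leaving out 1 library at a time gave 13 to 17 higher, 0 to 2 lower, medians of 0.75 to 0.96 and relative medians of 0.59 to 0.80, on the assumption that the lone library varies like the other group. The count of 0 lower came without GNE-987 replicate 2 and the count of 2 without GNE-987 replicate 1. Apart from the effect of the added or removed genes and libraries, the cause was not tested.

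Signs of single genes turned as follows. Under GAPDH scaling they were BOLA3 (-1.02), COQ6 (-0.63), MT-ND5 (-0.13), MT-ND6 (-0.023), NDUFA1 (-0.023), NDUFA10 (-1.17), NDUFA12 (-1.28), NDUFA13 (-0.55), NDUFA3 (-0.59), NDUFA6 (-1.18), NDUFA9 (-1.67), NDUFAB1 (-1.72), NDUFAF3 (-0.74), NDUFB1 (-0.69), NDUFB10 (-1.04), NDUFB11 (-0.12), NDUFB2 (-0.50), NDUFB3 (-0.47), NDUFB4 (-0.92), NDUFB5 (-1.17), NDUFB6 (-0.36), NDUFB7 (-0.89), NDUFB8 (-0.44), NDUFB9 (-0.61), NDUFC2 (-1.14), NDUFS4 (-1.78), NDUFS5 (-0.31), NDUFS6 (-0.64), NDUFS7 (-0.75), NDUFS8 (-1.57), NDUFV1 (-0.60), NDUFV2 (-0.80) and NRF1 (-0.47). Under scaling to total reads they were NDUFA10 (-0.11), NDUFA12 (-0.22), NDUFA6 (-0.12), NDUFA9 (-0.65), NDUFAB1 (-0.65), NDUFB5 (-0.11), NDUFC2 (-0.10), NDUFS4 (-0.72) and NDUFS8 (-0.51). Under scaling to nuclear reads they were NDUFA12 (-0.041), NDUFA9 (-0.48), NDUFAB1 (-0.47), NDUFS4 (-0.54) and NDUFS8 (-0.33). Under quantile normalization they were COQ6 (-0.063), GAPDH (-0.11), MT-ND1 (-0.15), MT-ND3 (-0.077), MT-ND4L (-0.21), MT-ND5 (-0.37), MT-ND6 (-0.12), NDUFA9 (-0.19), NDUFAB1 (-0.52), NDUFB10 (-0.31), NDUFB7 (-0.38), NDUFS4 (-0.067) and NDUFS5 (-0.32). Median-ratio scaling turned NDUFA11 (0.022), and leaving out a library turned NDUFA7 (from -1.86 to 0.34, above 0 without GNE-987 replicate 2), NDUFA9 (from -0.034 to 0.25, below 0 without control replicate 2) and NDUFS4 (from -0.044 to 0.17, below 0 without GNE-987 replicate 1).

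The deviations of same-numbered libraries had a correlation of 0.0054 over genes, so no pairing by replicate number was seen. With 2 libraries a group, this value cannot show that the libraries were unpaired. With the replicate number as a block, 15 members were higher and 1 lower, the median was 0.87, and the call of all 36 members was as without the block.

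Depth limits the low members most: with 2 reads of NDUFA7 in a GNE-987 library its change cannot be judged. The GNE-987 libraries were the shallower pair, and the recovered reads of 24 members rest on a whole exon length other than the annotated one. With 2 libraries a group, the spread is estimated from few values, and the counting program is not given in the sources used here.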
